A study of Mus musculus with 3 samples.

Results

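The ADAMTS proteases followed here are 9 genes of one family of secreted enzymes, measured in mouse granulosa cells around the ovulatory stimulus. They are Adamts1, Adamts2, Adamts4, Adamts5, Adamts7, Adamts9, Adamts10, Adamts12 and Adamts15. The 9 genes were taken as a list of names, drawn up with earlier results of these data known, from the 24225 genes of the dataset, which holds 10 further ADAMTS protease genes. Granulosa cells, the somatic cells that line the ovarian follicle, were released by puncturing follicles of wild type C57BL/6 females aged 21 to 28 days. Every animal had been given 4 IU of eCG, a gonadotropin that makes follicles grow. Ovaries were taken before the second hormone (0 h), or 4 h or 12 h after 5 IU of hCG, which acts as the ovulatory surge does, so that the 0 h group had had eCG alone. RNA came from 3 mice at each time, and 1 library stands for each time. The sources used here do not say whether the RNA of the 3 mice was pooled. There is thus no replicate, no difference below carries a p-value, and each comparison is one of 2 libraries.

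ADAMTS proteases are zinc-dependent enzymes that are made as inactive proforms, cut by proprotein convertases such as furin, and released into the matrix around the cell, where thrombospondin type 1 repeats help them bind their substrates. One branch, which holds ADAMTS1, ADAMTS4, ADAMTS5, ADAMTS9 and ADAMTS15, cuts the large hyaluronan-binding proteoglycans, among them versican. ADAMTS2 belongs to the procollagen N-propeptidases, ADAMTS7 and ADAMTS12 can cut cartilage oligomeric matrix protein, and ADAMTS10 is tied to fibrillin microfibrils. In the ovary Adamts1 is known as a gene that needs the progesterone receptor for its induction in granulosa cells, and mice without it ovulate poorly.

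The feature that unites the enzymes is the zinc-binding site, in which 3 histidines hold the metal and a glutamate takes part in catalysis. The coding stretch of 33 bases for this site is shown for the 5 proteoglycan-cutting members and, for contrast, for Adamts2. Capitals mark the codons of those histidines and that glutamate. The stretches were read from GENCODE M21 transcripts on GRCm38. Each runs across 1 intron, so that the interval given is longer than the sequence.
Adamts1, chr16:85799191-85799545, minus strand, exons 3 and 4 of 9: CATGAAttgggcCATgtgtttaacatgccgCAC
Adamts4, chr1:171253210-171253915, plus strand, exons 3 and 4 of 9: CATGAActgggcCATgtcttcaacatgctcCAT
Adamts9, chr6:92905285-92908493, minus strand, exons 8 and 9 of 40: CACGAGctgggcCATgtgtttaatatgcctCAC
Adamts15, chr9:30911255-30911690, minus strand, exons 2 and 3 of 8: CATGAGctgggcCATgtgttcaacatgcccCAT
Adamts5, chr16:85878015-85887826, minus strand, exons 2 and 3 of 8: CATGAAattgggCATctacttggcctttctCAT
Adamts2, chr11:50775403-50776134, plus strand, exons 7 and 8 of 22: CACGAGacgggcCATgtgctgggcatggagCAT

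The site was found once in frame in all 9 members, and in each an intron splits it. The intron falls after base 10 of the stretch in Adamts1, Adamts4, Adamts5 and Adamts15, and after base 17 in Adamts2, Adamts7, Adamts9, Adamts10 and Adamts12. The eighth codon of the stretch is AAC or AAT, which encode asparagine, in Adamts1, Adamts4, Adamts9 and Adamts15. It is GGC, which encodes glycine, in Adamts2, Adamts5, Adamts7, Adamts10 and Adamts12. Adamts5 combines the border after base 10 with the glycine codon, and Adamts9 the border after base 17 with the asparagine codon. Over the 36 pairs of members the stretch was identical at 17 to 30 of 33 bases, with a median of 20.

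Levels are given as FPKM, the number of fragments divided by transcript length and library size, which allows genes of different length to be set side by side. The bounds in brackets are those deposited with each value. Their level is not stated, they lie 2 deposited standard deviations from the FPKM (cut at 0), and they do not hold the spread between animals. A fold change is the log2 ratio of the later to the earlier library after 1 FPKM was added to both, which understates the change of genes with low levels. A gene was called higher or lower, and is said to have risen or fallen, where the fold was at least 2 and at least 1 of the 2 libraries reached 1 FPKM. In RNA from many cells, more cells of a type and more RNA per cell cannot be told apart.

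Of the 9 members, 3 rose between 0 h and 4 h: Adamts9, Adamts4 and Adamts1. None fell, 5 passed the filter on low values without a call, and Adamts15 lay under the filter. Among all 13240 genes that passed the same filter, 10.2% were called higher and 7.03% lower. From 4 h to 12 h, Adamts4 and Adamts9 fell, none rose, and 7 members passed the filter, where 4.83% of 13242 genes were higher and 7.88% lower. At 12 h, Adamts1, Adamts4 and Adamts9 were still called higher than at 0 h and none was lower, where 3.16% of 13026 genes were higher and 2.55% lower. Of all genes called, 59.3% were higher at 4 h against 0 h and 38.0% at 12 h against 4 h, or 36.7% and 70.7% with the libraries brought to a common FPKM sum. The median log2 fold of the members that passed was 0.33 at 4 h against 0 h, beside -0.01 over all genes tested. It was -0.12 beside 0.01 for 12 h against 4 h, and 0.42 beside -0.02 for 12 h against 0 h. Adamts4 passed the filter at 4 h against 0 h only through the 4 h library.

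**Figure D1:**
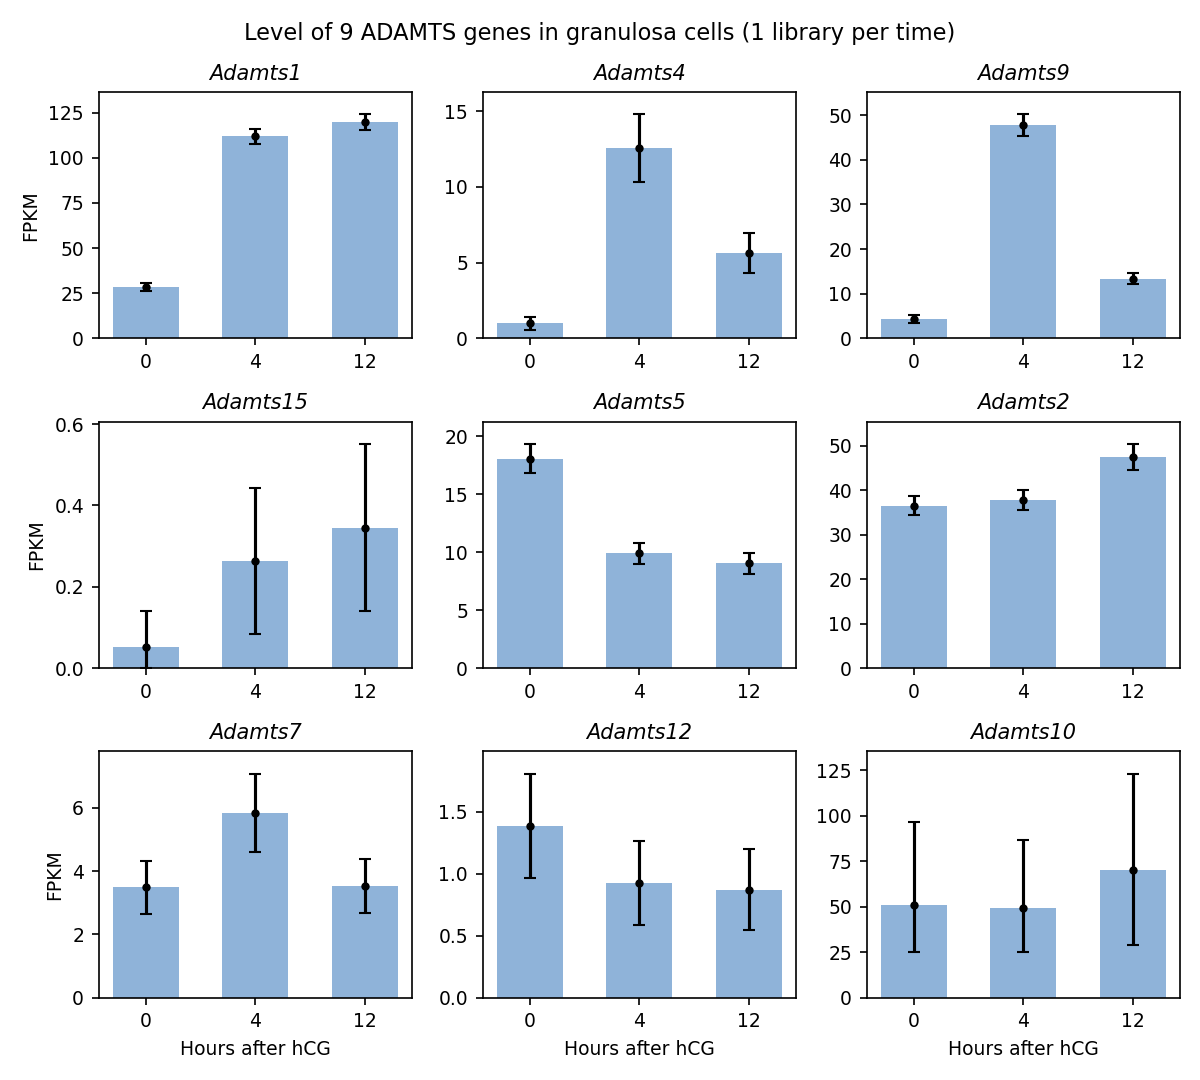
FPKM of the 9 ADAMTS genes (vertical axes, each with its own scale from 0) against hours after hCG, with 1 library per time. Bars and points are the FPKM and whiskers the deposited bounds, combined over 3 entries for Adamts10. Adamts1 stays near its 4 h level at 12 h (112 and 120 FPKM), while Adamts4 and Adamts9 peak at 4 h and Adamts5 is highest at 0 h.

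Adamts1, the versican-cutting protease best known from the ovulating follicle, lies on chromosome 16 on the minus strand (85793827 to 85803113, GRCm38.p6). It stood at 28.5 FPKM (26.5 to 30.6) at 0 h, 112 (108 to 116) at 4 h and 120 (116 to 124) at 12 h. The 0 h library was low and the other two high, and the bounds at 4 h and 12 h overlapped. The log2 fold at 4 h against 0 h was 1.93, a 3.92-fold rise that spans 3.52 to 4.37 when taken from the far ends of both intervals. At 12 h against 0 h it was 2.03, or 4.20-fold (3.78 to 4.68). Between 4 h and 12 h the log2 fold was 0.10, or 0.49 with the libraries brought to a common FPKM sum, and neither reached the 2-fold limit. At 4 h, 492 of the genes tested had a larger fold against 0 h than Adamts1. At 12 h, 93 of 13026 did, and the level of Adamts1 at 12 h was 1.07-fold that at 4 h.

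Adamts9, which also cuts versican and lies on chromosome 6 on the minus strand (92772699 to 92944450), had the largest fold of the 9 members at 4 h with 1 FPKM added. With 0.1 FPKM added its log2 fold was 3.42 and that of Adamts4 3.54. Its level was 4.37 FPKM (3.41 to 5.32) at 0 h, 47.8 (45.4 to 50.1) at 4 h and 13.3 (12.1 to 14.6) at 12 h, and no pair of these intervals overlapped. The log2 fold was 3.18 at 4 h against 0 h, a 10.9-fold rise (8.53 to 14.7 from the bounds), and 187 genes had a larger one. It then fell 3.59-fold (3.12 to 4.15), a log2 fold of -1.77, and remained 3.05-fold (2.27 to 4.27) above 0 h at 12 h, a log2 fold of 1.42. In the GENCODE gene spans, introns included, 9530026P05Rik overlaps Adamts9 on the opposite strand over 3164 bases and was listed at 0.566, 1.16 and 0.437 FPKM. The sources used here do not say whether the libraries kept strand, so reads from the shared bases cannot be assigned. A730049H05Rik and Gm15737 are annotated on that strand too and had no value.

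Adamts4, a protease first known for cutting aggrecan in cartilage, lies on chromosome 1 (171250129 to 171262267, plus strand). It was near the limit of the filter at 0 h, at 0.992 FPKM (0.541 to 1.44), reached 12.6 (10.4 to 14.8) at 4 h and stood at 5.65 (4.31 to 6.98) at 12 h. Again the 4 h library was high, the 12 h library lay between, and no pair of intervals overlapped. The log2 fold at 4 h was 2.77, and 239 genes had a larger one. The linear ratio was 12.7, but its far ends were 7.18 and 27.4, since the 0 h value rests on an estimated 55 fragments. The log2 fold from 4 h to 12 h was -1.03, only just past the limit, and it missed the limit at -0.999 after median-of-ratios scaling and at -0.68 with libraries brought to a common sum. At 12 h against 0 h the log2 fold was 1.74.

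Adamts5, the other main aggrecanase of cartilage, had its highest level before hCG. It lies on chromosome 16 beside Adamts1 on the same strand (85858157 to 85901125), and 53059 bases separate the neighbours in GENCODE M21. Its level was 18.1 FPKM (16.8 to 19.3) at 0 h, 9.90 (8.98 to 10.8) at 4 h and 9.04 (8.16 to 9.92) at 12 h. The 0 h library was high and apart from the other two, whose intervals overlapped. The log2 folds of -0.81 at 4 h and -0.93 at 12 h against 0 h did not reach the limit on the scale with 1 FPKM added. With the libraries brought to a common sum the 4 h value was -1.09 and would be a call. On the linear scale the 0 h level was 1.83-fold (1.55 to 2.15) the 4 h level and 2.0-fold (1.70 to 2.37) the 12 h level. Adamts1 FPKM per Adamts5 FPKM was 1.58 at 0 h, 11.3 at 4 h and 13.2 at 12 h. Since the ratio is taken within a library, it does not depend on the scaling between libraries.

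Adamts15, also a member of the proteoglycan-cutting branch, was scarcely detected. It was listed at 0.0520 FPKM (0 to 0.140), 0.264 (0.0832 to 0.444) and 0.345 (0.139 to 0.551) at 0, 4 and 12 h, which corresponds to an estimated 4, 18 and 23 fragments. The interval at 4 h overlapped both others, and at 12 h the lower bound lay just under the upper bound of 0 h. As it was under 1 FPKM in all 3 libraries, no call was made for it.

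Adamts2, the procollagen N-propeptidase, which removes the amino-terminal propeptide from fibrillar procollagens, was not called in any comparison. On chromosome 11 (50602085 to 50807573, plus strand), it stood at 36.5 FPKM (34.3 to 38.6), 37.8 (35.6 to 40.1) and 47.5 (44.6 to 50.3). The intervals at 0 h and 4 h overlapped and that of 12 h lay above both, by log2 folds of 0.37 against 0 h and 0.32 against 4 h. The gene of one of its substrates, Col1a1, a chain of type I collagen, was at 64.0, 71.2 and 81.1 FPKM and likewise never called. Adamts2 is overlapped on the opposite strand by Gm12198, Gm12199 and Gm12200, which had no value.

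Adamts7, which can cut cartilage oligomeric matrix protein, was at 3.48 FPKM (2.63 to 4.33), 5.84 (4.62 to 7.07) and 3.53 (2.67 to 4.38). The 4 h value was the highest and its interval lay just above the other two, with log2 folds of 0.61 against 0 h and -0.59 at 12 h against 4 h, neither a call. In GENCODE it is overlapped on the opposite strand over 6045 bases by Tbc1d2b, listed at 4.66, 11.3 and 5.48 FPKM. The shared bases lie beyond the end of Adamts7 in RefSeq (chromosome 9, 90162904 to 90200102). Adamts12, the closest relative of Adamts7 in domain structure, was at 1.38 FPKM (0.965 to 1.804), 0.928 (0.590 to 1.27) and 0.871 (0.546 to 1.20), and all 3 intervals overlapped. It passed the filter only through the 0 h library. The substrate shared by both proteases, Comp, was listed at 125 and 101 FPKM at 0 h and 4 h and at 1.70 FPKM (0.964 to 2.44) at 12 h, a log2 fold of -5.23 from 4 h to 12 h. In that step Adamts7 was not called, and Adamts12 lay under the filter.

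Adamts10, which is linked to fibrillin microfibrils, had the highest summed level at 0 h, but this level is uncertain. It was the only member with several entries in the table: 1 coding entry (NM_172619) and 2 noncoding ones (NR_037707 and NR_037708). Their sum was 50.8 FPKM (24.99 to 96.7) at 0 h, 49.3 (25.4 to 86.6) at 4 h and 70.5 (28.9 to 123) at 12 h with bounds combined as the root of summed squares. With the bounds simply added they were 6.51 to 125, 10.1 to 108 and 14.7 to 145. The upper bound lay 74.6% to 90.3% of the FPKM above it, whereas the median over genes of at least 10 FPKM was 14.9% to 15.4% in the 3 libraries. The coding entry was at 12.1 FPKM (0 to 34.5), 17.2 (10.1 to 24.4) and 0.0357 (0 to 0.182), or 23.9%, 34.9% and 0.0506% of the sum. One noncoding entry, NR_037708, was at 17.1 FPKM (0 to 54.2), 17.6 (0 to 39.8) and 51.9 (14.7 to 89.1). The log2 fold of the sum at 12 h against 4 h was 0.51, but it was -4.14 for the coding entry alone, a choice made after the data had been seen. How much of the change is a shift between transcripts and how much the division of shared reads among the 3 entries cannot be told apart.

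**Figure D2:**
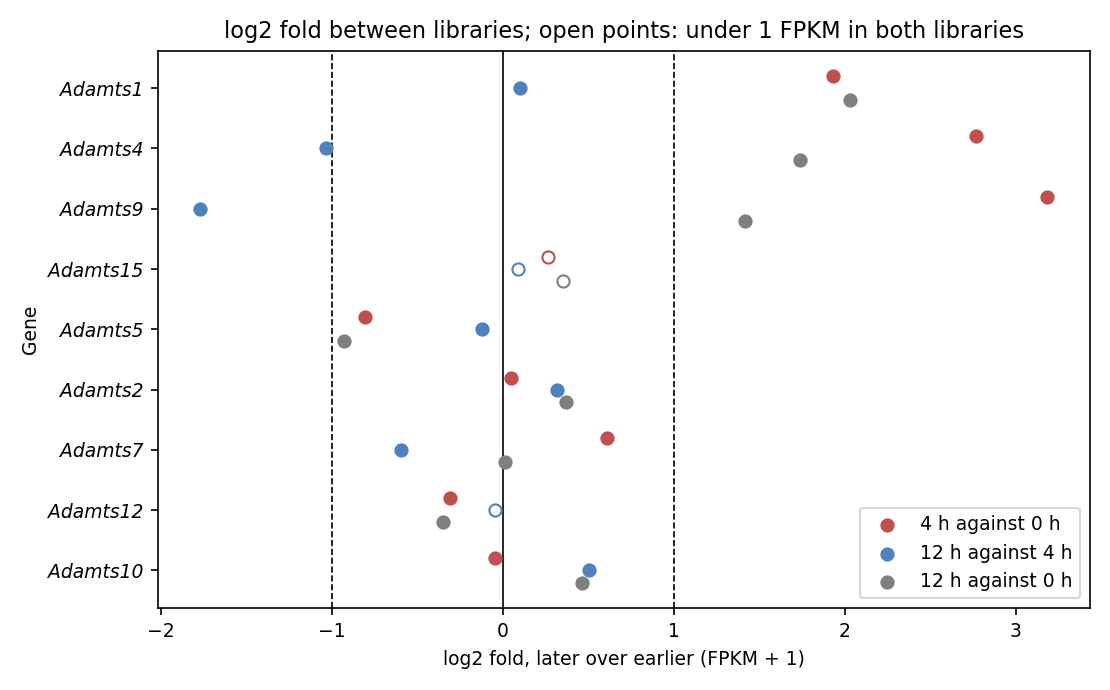
The log2 fold between pairs of libraries (horizontal axis, FPKM with 1 added, later over earlier) for each of the 9 genes (vertical axis). Dashed lines mark the 2-fold limit and open points are genes under 1 FPKM in both libraries. Adamts1, Adamts4 and Adamts9 lie past the right limit against 0 h, and Adamts4 (-1.03) and Adamts9 (-1.77) past the left one for 12 h against 4 h.

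The order of the members changed between the libraries. At 0 h, from the highest, it was Adamts10, Adamts2, Adamts1, Adamts5, Adamts9, Adamts7, Adamts12, Adamts4 and Adamts15. The intervals overlapped between Adamts10 and Adamts2, between Adamts9 and Adamts7, and between Adamts12 and Adamts4. At 4 h, Adamts1 led, followed by Adamts10, Adamts9, Adamts2, Adamts4, Adamts5, Adamts7, Adamts12 and Adamts15, with overlap between Adamts10 and Adamts9 and between Adamts4 and Adamts5. At 12 h the order was Adamts1, Adamts10, Adamts2, Adamts9, Adamts5, Adamts4, Adamts7, Adamts12 and Adamts15. There the neighbours that overlapped were Adamts1 with Adamts10, Adamts10 with Adamts2, Adamts4 with Adamts7, and Adamts12 with Adamts15. Adamts9 moved from rank 5 at 0 h to rank 3 at 4 h, and Adamts4 from rank 8 to rank 5.

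The summed FPKM of all 19 ADAMTS protease genes was 167 at 0 h, 300.8 at 4 h and 305 at 12 h. The 9 members held 86.2%, 91.8% and 88.8% of it. The 5 proteoglycan-cutting members alone held 31.1% at 0 h, 60.6% at 4 h and 48.6% at 12 h. Adamts1 accounted for 17.1%, 37.2% and 39.3%, and Adamts9 for 2.61%, 15.9% and 4.37%. As deposited, the near-equal sums at 4 h and 12 h thus had different makeups. That near-equality depends on the scaling between libraries, while the shares are taken within a library and do not. Bringing the libraries to a common FPKM sum multiplies all 4 h values by 0.856 and all 12 h values by 1.12. The uncertain Adamts10 entries enter the ADAMTS sums and shares.

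**Figure D3:**
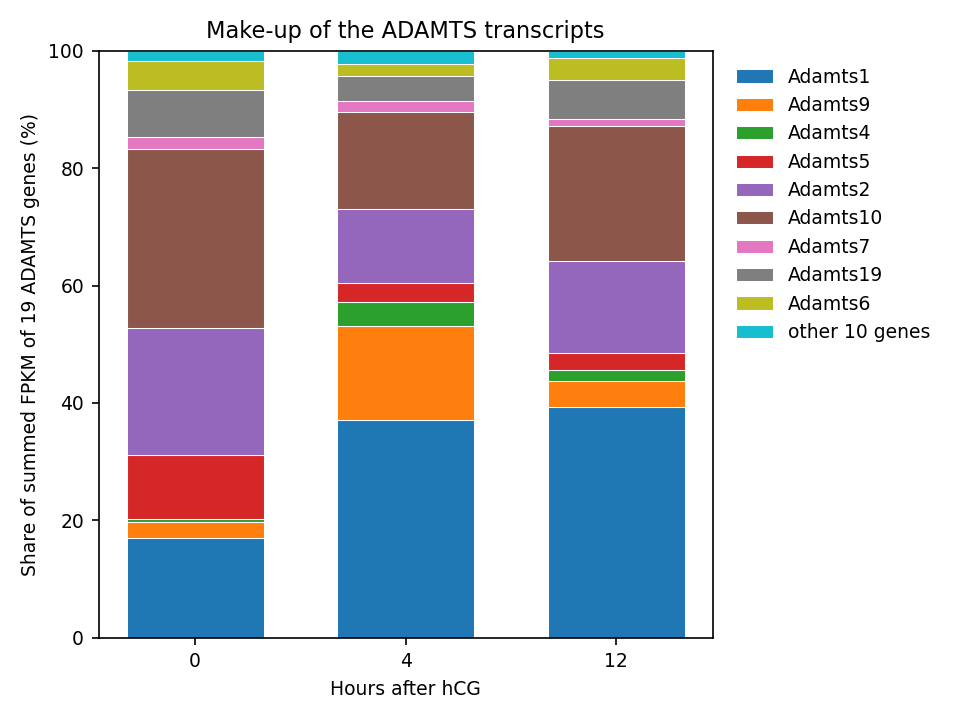
Share of the summed FPKM of the 19 ADAMTS protease genes (vertical axis, percent) in the 3 libraries (horizontal axis, hours after hCG). Each coloured segment is a gene, and the last segment holds the 10 genes not listed by name. The 4 lowest segments of each bar, Adamts1, Adamts9, Adamts4 and Adamts5, take up most of the 4 h bar and a smaller part of the 0 h bar.

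Of the 10 other ADAMTS proteases, 4 passed the filter at 4 h against 0 h and 1 rose, beside 10.2% of all genes. This was Adamts3, a procollagen N-propeptidase, at 0.132 FPKM (0.0387 to 0.276), 3.22 (1.29 to 5.64) and 0.350 (0.125 to 0.576), which fell again from 4 h to 12 h with a log2 fold of -1.64. Adamts3 passed the filter in these comparisons only through the 4 h library. Adamts6 stood at 8.16, 5.91 and 11.4 FPKM, Adamts19 at 13.4, 13.0 and 20.4, and Adamts16 at 0.330, 1.124 and 1.20, with no call for any of them. With a common FPKM sum 1 gene of this list rose and 1 fell from 4 h to 12 h, and with 5 FPKM added, or a filter of 5 FPKM, none was called at 4 h against 0 h or at 12 h against 4 h. Of 7 ADAMTS-like proteins, which have the accessory domains but no protease domain, 3 passed the filter at 4 h against 0 h and none rose or fell. Adamtsl2 was at 4.25, 5.30 and 8.94 FPKM, Adamtsl4 at 1.49, 1.67 and 1.89, Papln at 0.750, 0.755 and 1.45, and Thsd4 at 0.901, 1.47 and 0.639.

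The region before the start of transcription was available for 4 members. For Adamts1 and Adamts9, which rose, and Adamts2, which did not, the 250 bases before the start are printed from RefSeq (GRCm38.p6), with matches to the searched motifs in capitals.
Adamts1, chr16:85803114-85803363, minus strand: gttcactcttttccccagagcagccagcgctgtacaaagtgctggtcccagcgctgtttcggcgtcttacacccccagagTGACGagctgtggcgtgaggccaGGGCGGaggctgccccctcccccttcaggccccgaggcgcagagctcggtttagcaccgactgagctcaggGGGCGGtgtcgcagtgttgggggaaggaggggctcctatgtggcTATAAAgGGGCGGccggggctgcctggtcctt
Adamts9, chr6:92943535-92943784, minus strand: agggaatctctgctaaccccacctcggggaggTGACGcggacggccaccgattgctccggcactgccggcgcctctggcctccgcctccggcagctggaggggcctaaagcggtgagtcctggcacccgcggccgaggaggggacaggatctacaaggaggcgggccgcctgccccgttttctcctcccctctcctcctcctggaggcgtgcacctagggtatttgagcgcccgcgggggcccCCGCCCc
Adamts2, chr11:50601835-50602084, plus strand: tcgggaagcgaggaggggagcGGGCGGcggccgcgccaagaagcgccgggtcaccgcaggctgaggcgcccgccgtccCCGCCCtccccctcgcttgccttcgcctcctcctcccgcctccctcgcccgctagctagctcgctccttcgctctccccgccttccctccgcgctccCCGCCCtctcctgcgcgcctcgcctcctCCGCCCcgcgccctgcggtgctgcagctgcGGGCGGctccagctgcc

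Short motifs were searched on both strands in the window from 250 bases before to 50 bases after the start, and in all 32851 windows of the same length. In Adamts1 the letters of the TATA box, which are TATAAA, began 32 bases before the start, and the GC box, with the letters GGGCGG, began 147, 76 and 25 bases before it. The letters TGACG, with which the cAMP response element opens, began 170 bases before the start in Adamts1, 218 in Adamts9 and 205 in Adamts12, a gene that did not rise. Adamts9 had 1 GC box, 7 bases before the start on the other strand, and Adamts2 had 5, at 229, 172, 75, 47 and 17 bases. The GC box was in 35.7% of all windows, TGACG in 20.8% and TATAAA in 13.6%. No member's window held TGACGTCA (the full cAMP response element, which contains TGACG, in 1.79% of windows), TGAGTCA (AP-1 site, 5.20%), CCAAT (37.4%), CACGTG (E box, 7.15%), TGTTCT (core of the progesterone receptor element, 18.97%) or AACCACA (RUNX site, 5.27%). A match shows only that these letters are present. The GC content of the 250 bases was 65.6% in Adamts1, 71.2% in Adamts9, 78.0% in Adamts2 and 63.2% in Adamts12, beside a median of 52.4% over all windows. The Adamts9 window lies inside the annotated span of the gene, which reaches farther upstream.

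Of the 14 genes for the progesterone receptor and other factors tied to Adamts1, 5 rose at 4 h and none fell. Over all genes tested, 10.2% rose and 7.03% fell. The median log2 fold of the list was 0.79, beside -0.01 over all genes. With the libraries brought to a common sum 5 rose and 3 fell. Pgr, the progesterone receptor itself, stood at 0.191 FPKM (0.0444 to 0.338) at 0 h, 138 (134 to 142) at 4 h and 0.399 (0.191 to 0.606) at 12 h. Its rise at 4 h and its fall from 4 h to 12 h passed the filter only through the 4 h library. At 12 h Pgr was back under 1 FPKM while Adamts1 remained at 120 FPKM. Runx1, a Runt-family transcription factor, was at 5.57, 94.2 and 21.3 FPKM, its relative Runx2 at 2.23, 72.6 and 12.2, and Junb, a subunit of AP-1, at 8.10, 95.5 and 21.0. Each of these 3 rose at 4 h, fell from 4 h to 12 h and was still called higher at 12 h than at 0 h, as were Adamts4 and Adamts9. Adamts1 did not fall. Cebpb, another factor of the list, also rose and fell but was not called at 12 h against 0 h (50.4, 170 and 61.6 FPKM).

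Hyaluronan-matrix genes hold the best-known substrates of the proteoglycan-cutting branch. Of 19 listed, 10 passed the filter at 4 h against 0 h and 6 rose (5 with a common FPKM sum). The median log2 fold was 1.88, beside -0.01 over all genes tested, of which 10.2% rose. From 4 h to 12 h 6 of the 10 that passed fell, beside 7.88% of all genes, with a median of -2.24 beside 0.01. The hyaluronan synthase genes Has1, Has2 and Has3 passed at 4 h against 0 h only through the 4 h library. The same holds for Has1 and Has2 from 4 h to 12 h. Vcan, the gene of versican, stood at 111 FPKM (105 to 118), 1806 (1767 to 1846) and 119 (114 to 124). Vcan FPKM per Adamts1 FPKM was therefore 3.91 at 0 h, 16.2 at 4 h and 0.994 at 12 h. Per summed FPKM of the 5 proteoglycan-cutting members it was 2.14, 9.91 and 0.803. Versican transcripts thus exceeded those of Adamts1 in the first 2 libraries, and the levels were near equal in the third. Acan, the gene of aggrecan, stayed under 1 FPKM throughout at 0.187, 0.611 and 0.0715. Tnfaip6 and Ptx3, which help to build the hyaluronan matrix, were at 1.40, 1251 and 7.01 and at 1.18, 396 and 1.25 FPKM, and the hyaluronan synthase Has2 at 0.111, 15.9 and 0.277.

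Other substrates were followed as well. Of 22 genes of procollagens, fibrillin microfibrils, small proteoglycans and related proteins, 21 passed the filter at 4 h against 0 h. Of these 2 rose and none fell, beside 10.2% risen and 7.03% fallen over all genes tested. The share that rose was thus near that of all genes. The median log2 fold was 0.36, beside -0.01 over all genes. With a common FPKM sum neither call remained. The risen genes were Thbs1, a thrombospondin, at 190, 422 and 322 FPKM, and Tfpi2, a protease inhibitor, at 0.861, 2.96 and 1.05. Tfpi2 passed the filter at 4 h against 0 h only through the 4 h library. Col5a2, a chain of type V collagen, was at 7.93, 16.8 and 12.1 FPKM and just missed the limit at 4 h with a log2 fold of 0.999. Comp was the only gene of this list that fell in any comparison.

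Among 10 inhibitor genes, 6 passed the filter at 4 h against 0 h and 2, Timp1 and Timp3, rose, with a median log2 fold of 0.60. Over all genes tested 10.2% rose in that step, with a median of -0.01, and 7.88% fell from 4 h to 12 h. Timp3, whose product inhibits several ADAMTS proteases, stood at 13.2 FPKM (11.3 to 14.99), 28.6 (26.5 to 30.8) and 10.6 (8.88 to 12.4). Its log2 fold at 4 h was 1.07. With a common FPKM sum Timp3 was no longer called in that step, and 1 inhibitor rose and 1 fell. Timp1, a broad metalloproteinase inhibitor, was at 34.6, 521 and 191 FPKM, so that Timp1 per Timp3 was 2.63, 18.2 and 17.99. Timp3, Timp1 and Reck, a membrane-anchored inhibitor at 9.74, 12.0 and 4.96 FPKM, fell from 4 h to 12 h. With a common FPKM sum only Timp1 kept its fall, and 1 inhibitor rose in that step. Timp4 was at 0.371, 0.695 and 2.06 FPKM and was called higher at 12 h than at 0 h, where it passed the filter only through the 12 h library. Timp3 FPKM per summed FPKM of the 9 members was 0.0912 at 0 h, 0.104 at 4 h and 0.0394 at 12 h.

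Genes for activation, uptake and cofactors formed another list. Of 14 listed, 11 passed the filter at 4 h against 0 h and 5 rose, or 4 with a common FPKM sum. The median log2 fold was 0.83, beside -0.01 over all genes tested, of which 10.2% rose. From 4 h to 12 h 7.88% of all genes tested fell. Among the 5 risen genes, 3 encode proprotein convertases: Furin was at 22.6 FPKM (16.9 to 29.5), 62.0 (56.5 to 67.5) and 30.6 (21.1 to 40.2), Pcsk5 at 11.7, 171 and 44.3, and Pcsk6 at 5.63, 23.01 and 10.3. Pcsk5 and Pcsk6 fell from 4 h to 12 h, while Furin just missed the limit with a log2 fold of -0.99. Sdc1 fell too, so that the list held 3 falls in this step, or 2 with a common FPKM sum. Sdc1, a cell-surface heparan sulfate proteoglycan, was at 45.4, 574 and 140 FPKM. Lrp1, an endocytic receptor that clears several ADAMTS proteases, was at 52.1, 48.7 and 66.2 FPKM and did not reach the limit. Fbln1, whose product fibulin-1 is a cofactor of ADAMTS1, was at 179, 221 and 130, likewise without a call. The enzymes that add sugars to thrombospondin repeats did not reach the limit either, with Pofut2 at 93.7, 127 and 73.8 FPKM and B3glct at 10.4, 13.7 and 9.44.

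**Figure D4:**
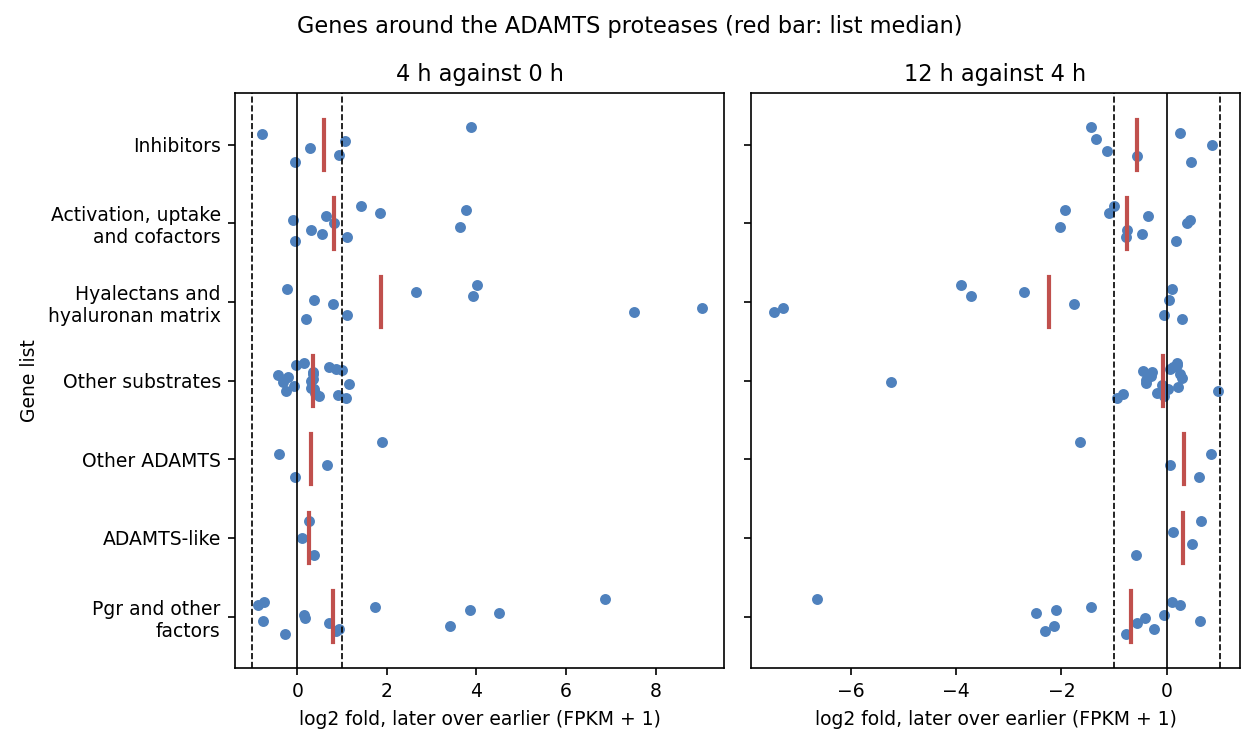
The log2 fold (horizontal axes, FPKM with 1 added, later over earlier) of the genes of 7 lists around the ADAMTS proteases (vertical axis), for 4 h against 0 h on the left and 12 h against 4 h on the right. Each point is a gene that passed the filter, red bars are list medians and dashed lines the 2-fold limit. Hyaluronan-matrix genes reach farthest in both panels, with medians of 1.88 and -2.24, which include genes that passed only through the 4 h library.

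The genes whose course was closest to that of a member were found by the Euclidean distance over the pair of log2 folds against 0 h, from 3 libraries and among 10049 protein-coding genes of at least 5 FPKM in 1 library. For Adamts1 they were Ptk2b, Hdc and Ptgs1, at distances of 0.11, 0.12 and 0.17. Ptk2b, for example, stood at 2.78, 14.1 and 13.6 FPKM. For Adamts9 they were Sik1, Tspan11 and Fdx1, at distances of 0.05, 0.17 and 0.18, with Sik1 at 3.41, 40.4 and 10.9 FPKM. For Adamts4 they were Nr4a1, Clcf1 and Peg10, at distances of 0.12, 0.12 and 0.12, with Nr4a1 at 11.9, 91.7 and 39.4 FPKM. For Adamts5 they were Aqp1, Dock5 and Dcaf12l1, at distances of 0.07, 0.07 and 0.08, with Aqp1 at 9.01, 4.97 and 4.37 FPKM. With so few libraries a match in course is only a description.

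The libraries were checked against markers of the labelled cells and of other cells. All 9 granulosa markers were above 1 FPKM in every library, with Inha at 6986, 7163 and 3742 FPKM, Foxl2 at 149, 44.3 and 102 and Fshr at 133, 15.5 and 32.1, and their summed level was 10041, 9572 and 6123. Inha made up most of that sum, and the median of the granulosa markers was 252, 64.0 and 196 FPKM. At 4 h against 0 h, 4 of the granulosa markers fell and 1 rose, with a median log2 fold of -0.88. Over all genes tested, 10.2% rose and 7.03% fell in that step, with a median of -0.01. From 4 h to 12 h, 7.88% of all genes tested fell. Markers of other cell types were present too, and no marker was at 0. The 10 theca and stroma markers summed to 421, 789 and 601 FPKM (Cyp17a1 at 93.6, 114 and 59.0), with a median log2 fold of 0.22 at 4 h against 0 h. The 1 that rose at 4 h was Mgp, named after its values were seen, at 70.9, 371 and 191 FPKM. The 6 smooth muscle and pericyte markers summed to 115, 175 and 170 (Acta2 at 59.8, 59.1 and 75.4). The 1 that rose at 4 h was Tagln, at 45.0, 101 and 79.8 FPKM, also named after its values were seen. The 7 endothelial markers summed to 15.1, 37.2 and 14.4. Of 6 that passed at 4 h, 2 rose, and 3 fell from 4 h to 12 h. The 2 that rose were Kdr, at 1.54, 7.92 and 1.24 FPKM, and Emcn, at 2.77, 7.997 and 2.75. Both were named after their values were seen, and both were among the 3 that fell. Pecam1, at 2.83, 5.01 and 2.83, and Cdh5, at 5.59, 10.9 and 5.98, were highest at 4 h but had no call. Adamts4, Adamts7 and Adamts9 were likewise highest at 4 h, as were the sums of theca and stroma, smooth muscle and surface epithelium markers. The granulosa sum was highest at 0 h, and the leukocyte and oocyte sums at 12 h. The 6 leukocyte markers summed to 55.7, 86.2 and 91.3. The 1 that rose at 4 h was Cd68, at 5.39, 22.7 and 12.5 FPKM, named after its values were seen. Ptprc, at 0.489, 0.489 and 0.521, was under 1 FPKM in every library. The 7 surface epithelium markers summed to 60.4, 146 and 91.1, and 4 rose at 4 h. The 8 oocyte markers summed to 197, 151 and 281, and none rose or fell at 4 h. The part of these other cells in the levels of the ADAMTS genes was not tested.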

How the data were processed

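Messenger RNA of granulosa cells was measured in 3 libraries, 1 each at 0, 4 and 12 h after hCG. The authors deposited FPKM per RefSeq transcript with a lower and an upper bound and a standard deviation, and a status flag. The submitters' processing notes list the mm10 build beside Cufflinks 2.2.1, TopHat2 2.1.1 and CASAVA 1.8, with no role or order. The sources used here do not state read strand.

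Of 34535 transcripts, 34169 were matched to gene symbols through RefSeq names of GRCm38.p6 and 193 through GENCODE M21. The other 173 were left out. FPKM were summed to 24225 genes. The 12 failed estimates touched 0 members. Bounds were combined over transcripts as the root of summed squared half-widths, which treats transcripts as independent. Folds used a pseudocount of 1 FPKM, a minimum of 1 FPKM in 1 library and a 2-fold limit. The calculation was run on simulated data without spread between animals. That run required only that the largest changes put in were called, so it does not check the 2-fold limit. With 1 library per time no test was made.

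Depth was estimated from the spacing of low FPKM values, for an allowed 200-base shortening of transcripts, as 13250000, 11850000 and 11550000 fragments. At that depth 71.1%, 69.9% and 71.4% of the low values fell within 0.1 of a whole fragment, beside 20% by chance. Fragment numbers in the text are therefore estimates. The FPKM sums were 501561, 621365 and 472904, so the 4 h library stands higher in total.

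Members and gene lists were chosen with earlier results of these data known. Named were all 9 members, other ADAMTS proteases that reached 1 FPKM, up to 4 genes per list with the largest absolute fold, and a fixed set of genes and markers. Has1, Has3, Cebpb and the markers Mgp, Tagln, Kdr, Emcn and Cd68 were named after their values were seen. Fn1, Sdc4 and the other list genes outside the rule appear only in counts. The zinc-site search was widened to accept any eighth codon, since a glycine there was not found in every member, and for Adamts9 the longest coding transcript was used, because the transcript paired with its RefSeq entry starts downstream of the site. Protein sequences were not used here. Alternatives tried were another pseudocount, filter, fold limit, scaling between libraries, transcript choice and combination of bounds. Python 3.11.15, pandas 2.3.3, numpy 2.4.6 and matplotlib 3.10.9 were used.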

Additional observations from a re-analysis of the deposited data

How the results depend on the processing

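No paired analysis was possible because each time has 1 library. The deposited bounds do not hold differences between animals, and no setting here can supply them. The number of members called at 4 h against 0 h was 3 and became 5 at a 1.5-fold limit, with Adamts5 and Adamts7 added, 4 with the mean FPKM sum or the mean protein-coding sum, with Adamts5 added, and 2 at a 4-fold limit, with Adamts1 lost. For 12 h against 4 h the count of 2 became 1 with a pseudocount of 5 FPKM, with median-of-ratios scaling, with libraries brought to the mean FPKM sum and with the mean protein-coding sum, each time through the loss of Adamts4, and 0 at a 4-fold limit. For 12 h against 0 h the count of 3 became 1, Adamts1, with a pseudocount of 5 FPKM and at a 4-fold limit. At a 1.5-fold limit the 12 h against 4 h count was 3, with Adamts7 added, and the 12 h against 0 h count 4, with Adamts5 added. With the highest transcript of each gene, or with coding entries alone, these counts were also 3 and 4, with Adamts10 added. With coding entries alone, an alternative chosen after seeing the data, the log2 fold of Adamts10 reversed to -4.14 for 12 h against 4 h and -3.67 for 12 h against 0 h. With its highest transcript alone these values were 1.51 and 1.55. With no filter, and with a filter of 5 FPKM, all 27 member folds (9 genes in 3 comparisons) stayed on their side of the limit.

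The scaling changes the picture of all genes. With the mean FPKM sum the median log2 fold moved from -0.01 to -0.29 at 4 h against 0 h and from 0.01 to 0.37 for 12 h against 4 h. The share of higher genes among those called went from 59.3% to 36.7% and from 38.0% to 70.7%. With the mean protein-coding sum it was 42.5% and 62.0%, and with a pseudocount of 5 FPKM 69.4% and 20.1%. At a 4-fold limit it was 79.6% and 14.9%, and at 1.5-fold 50.2% for 12 h against 4 h. Adamts1, Adamts4 and Adamts9 were called higher at 4 h against 0 h under each of these scalings.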
